A study of Mus musculus with 16 samples.

Results

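The 44 genes described here encode the machinery of mitosis and cytokinesis, the steps in which a cell separates its copied chromosomes and divides. They were chosen by name: 11 mitotic kinases, cyclins and their regulators, 9 checkpoint and kinetochore genes, 11 motors and microtubule proteins, 5 genes of mitotic chromosomes and the chromosomal passenger complex, 4 genes of anaphase and cyclin destruction, and 4 of cytokinesis. Mki67 was listed with the kinases and cyclins, though its product is neither. A gene was taken if a probe on the array bore its name or an older one. Cdk1 stood there as Cdc2a, Ndc80 as Kntc2 and Nuf2 as Cdca1. All 44 were on the array, with 71 probes, and all 44 passed the filter on dim probes with 61 probes, so they are 44 of the 17082 genes tested.

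The cells were mast cells of an immature kind, derived from mouse bone marrow in over 4 weeks of culture in 10% serum, 5 ng/ml of interleukin 3 and 40 ng/ml of stem cell factor, and over 90% pure by their IgE receptor and Kit. All cells received, at 15 ug/ml, either an agonist antibody against TIM-3, a receptor of immune cells, or goat IgG. Activated cells had also been loaded with anti-DNP IgE (5 ug/ml, 1 h) and were given its antigen DNP-HSA (100 ng/ml) together with the antibody, while resting cells had neither. What is called the antigen effect below is therefore that of IgE and antigen together, which no group separates. The treatments and times gave 4 groups of 4 arrays: at 16 h activated cells and resting cells, and at 2 h the same pair. On every array the anti-TIM-3 sample carried the red dye Cy5 and the IgG sample the green dye Cy3. Since 0 arrays exchanged the dyes, an anti-TIM-3 ratio within a group holds the dye bias of the probe as well, and it drops out of a difference between groups only where it is the same on every array. The labels do not state that replicates came from different cultures or mice, so a p-value here reflects only how these samples vary among each other, possibly for technical reasons.

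A cell that commits to division makes many transcripts of this programme in the second gap phase, so their abundance in a culture depends in part on how many cells are near mitosis. Cyclin A and cyclin B activate the kinase Cdk1, Polo-like and Aurora kinases assemble the spindle, the checkpoint proteins at the kinetochores hold anaphase back, and the anaphase-promoting complex then destroys securin and cyclin B. Many of these genes are silenced outside this window by a repressor complex that binds the CHR, the cell cycle genes homology region, next to CCAAT boxes bound by NF-Y. Mast cells in interleukin 3 and stem cell factor keep dividing, and crosslinking of their IgE receptor releases granules and induces cytokine genes.

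The windows that hold these elements are shown for 4 members, since the members moved together while Cenpa did not move with them. RefSeq (GRCm38.p6) gave a window of 250 bases before to 50 bases after the annotated start for 35 of the 44 genes. Capitals mark the CHR letters TTTGAA, the related TTTAAA and the box CCAAT, each searched on both strands (TTCAAA and ATTGG are the same letters read on the other strand), and no searched motif overlapped another in the windows printed.
Plk1 (chr7:122159185-122159484, plus strand): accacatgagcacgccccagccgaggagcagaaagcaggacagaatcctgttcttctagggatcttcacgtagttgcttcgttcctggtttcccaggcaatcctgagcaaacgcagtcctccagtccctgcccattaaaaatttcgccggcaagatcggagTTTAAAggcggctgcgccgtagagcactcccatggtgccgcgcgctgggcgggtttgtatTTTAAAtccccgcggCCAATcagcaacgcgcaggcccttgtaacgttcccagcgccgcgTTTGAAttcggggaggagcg
Ccnb2 (chr9:70421505-70421804, minus strand): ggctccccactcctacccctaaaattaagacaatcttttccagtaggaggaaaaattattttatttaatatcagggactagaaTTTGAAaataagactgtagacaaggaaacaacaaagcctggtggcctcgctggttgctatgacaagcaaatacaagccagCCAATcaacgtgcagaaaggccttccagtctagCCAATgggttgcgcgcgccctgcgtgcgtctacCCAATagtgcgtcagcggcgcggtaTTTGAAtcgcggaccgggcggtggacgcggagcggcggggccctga
Cdk1 (chr10:69352863-69353162, minus strand): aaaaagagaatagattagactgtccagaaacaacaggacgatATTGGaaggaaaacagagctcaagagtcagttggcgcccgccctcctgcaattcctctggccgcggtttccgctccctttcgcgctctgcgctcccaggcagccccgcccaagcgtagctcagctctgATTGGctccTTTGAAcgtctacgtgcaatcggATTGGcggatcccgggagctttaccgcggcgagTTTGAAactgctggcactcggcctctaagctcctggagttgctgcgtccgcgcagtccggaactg
Cenpa (chr5:30666636-30666935, plus strand): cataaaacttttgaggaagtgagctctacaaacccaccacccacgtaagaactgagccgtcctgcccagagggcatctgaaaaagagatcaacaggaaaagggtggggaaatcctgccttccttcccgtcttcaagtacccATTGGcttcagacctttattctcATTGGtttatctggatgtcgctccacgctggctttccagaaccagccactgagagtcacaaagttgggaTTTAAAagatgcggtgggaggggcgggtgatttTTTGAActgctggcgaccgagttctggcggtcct

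TTTGAA occurred in 25 of the 35 members with a window (71.4%), against 20.2% of all 27025 genes with one, and CCAAT in 26 members (74.3%), against 41.1% of all genes. TTTAAA was in 9 members (25.7%), against 14.9% of all genes. TTTGAA and CCAAT stood together in 22 members (62.9%), against 7.97% of all genes. The TTTGAA nearest to the annotated start, with the bases around it, is shown for 6 further members, since they include genes that fell most at 2 h (Cenpf, Prc1) and Kif23, which did not pass there. Kif22 has it on the other strand. In these short stretches capitals mark this element only. Other searched letters, such as the attgg of Kif23 (CCAAT on the other strand), stay in lower case.
Cenpf (chr1:189688067-189688096, minus strand): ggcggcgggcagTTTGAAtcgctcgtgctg
Prc1 (chr7:80294434-80294463, plus strand): cctctggctcggTTTGAAttccgcggggtc
Aurka (chr2:172370521-172370550, minus strand): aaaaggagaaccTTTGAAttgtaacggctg
Kif22 (chr7:127042420-127042449, minus strand): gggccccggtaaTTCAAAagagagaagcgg
Kif23 (chr9:61946780-61946809, minus strand): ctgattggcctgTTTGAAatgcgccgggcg
Racgap1 (chr15:99651634-99651663, minus strand): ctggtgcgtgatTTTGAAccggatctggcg

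The share of spots well above background was 53.7% to 62.1% in Cy3 and 54.8% to 67.7% in Cy5, and 0 spots were saturated. Outlier spots removed 4 of the 704 member ratios, all of Birc5, which leaves that gene with 1 array in resting cells at 16 h and 3 in activated cells at 16 h. The log2 ratios of 3 arrays (resting cells at 2 h replicate 4, resting cells at 16 h replicates 2 and 4) had the smallest spread over all genes, and counts that moved by over 1.5 times without them are given beside the result. All 10 mast cell markers were above background. The 4 slides of 4 arrays each were also the 4 scans, and values within a slide are given where it held both groups.

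Antigen lowered nearly the whole set within 2 h. Among IgG-treated cells, compared across arrays in the Cy3 channel, 42 of the 44 genes fell in activated cells and 1, Cenpa, rose, where 27.6% of all genes tested fell and 15.3% rose. The median change of the members was -0.89 on the log2 scale, a 1.86-fold lower level, and 13 genes were at least 2-fold lower, while the median of all genes was -0.04. For 41 genes all 4 activated arrays lay below all 4 resting arrays, which held for 24.5% of all genes with every array measured. The median was -1.11 with the scanner's processed signals and -0.76 with each array only centred on its median, so the direction did not depend on the scaling, although 29 rather than 42 genes then passed as lower. It was -0.95 and -0.85 within the 2 slides that held both groups. In RNA from whole cultures, fewer dividing cells and less of these RNAs per cell cannot be told apart.

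The 11 genes listed as kinases, cyclins and regulators, Mki67 among them, all fell at 2 h (median -1.00). Plk1, the Polo-like kinase of spindle assembly, had log2 Cy3 intensities of 9.65, 9.38, 9.26 and 9.25 in activated cells, against 10.83, 10.89, 10.54 and 10.71 in resting cells. The highest activated array was below the lowest resting array. The change was -1.36 ± 0.09 (SE, n = 4 each; limma, adjusted p = 4.54e-09), or 2.57-fold lower. Mki67, whose product Ki-67 coats mitotic chromosomes and marks dividing cells, read 10.77, 10.46, 10.40 and 10.39 in activated cells, against 11.77, 11.82, 11.64 and 11.57 in resting cells, a change of -1.20 ± 0.08. Ccnb1, cyclin B1, read 8.42, 8.30, 8.18 and 8.20 in activated cells, against 9.36, 9.32, 9.01 and 9.13 in resting cells. Its groups also stood apart, and its change was -0.93 ± 0.07. Cdk1, the kinase that cyclin B1 activates, fell by 0.53 ± 0.11 (adjusted p = 0.000688) on the brighter of its 2 probes, with 9.09, 9.25, 8.99 and 9.0 in activated cells, against 10.01, 9.55, 9.58 and 9.31 in resting cells. The smallest fall in this group was that of Foxm1, the transcription factor of the late cell cycle, at -0.46 ± 0.08.

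Of the 9 checkpoint and kinetochore genes, 8 fell and 1 rose. Cenpf, a kinetochore protein, read 7.99, 7.88, 7.66 and 7.67 in activated cells, against 9.24, 9.40, 9.23 and 9.15 in resting cells, and was 2.74-fold lower. Cenpe, the kinetochore kinesin, fell by 1.24 ± 0.09 on the brightest of its 3 kept probes, while the least changed of them gave -0.30. Bub1b, the checkpoint kinase-like protein BubR1, fell by 1.00 ± 0.09. Ttk, the checkpoint kinase Mps1, was not well above background on any activated array at 2 h, so its level is given as at least 1.33-fold lower (adjusted p = 7.73e-05). Hmmr and Anln, of other roles, were likewise near the limit, above background on 1 and 2 of the 4 activated arrays. Cenpa, the histone H3 variant that marks centromeres, went the other way, with 11.45, 11.33, 11.29 and 11.36 in activated cells, against 10.50, 10.63, 10.61 and 10.39 in resting cells. Every activated array was above every resting array, and the gene was 1.77-fold higher (0.82 ± 0.08, adjusted p = 3.97e-07). This rests on 1 kept probe, and its window holds the same letters as those of the genes that fell.

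Of the 11 motors and microtubule proteins, 10 fell, among them Hmmr and Kif2c, whose probes were dim in activated cells. Tpx2, which activates Aurora A on the spindle, read 8.39, 8.21, 8.14 and 8.11 in activated cells, against 10.04, 9.37, 9.70 and 9.23 in resting cells, and was 2.58-fold lower. The resting arrays differed more from each other (SD 0.36) than the activated ones (SD 0.13), without overlap. Prc1, which bundles the midzone microtubules, fell by 1.27 ± 0.10. Kif23, the central spindle kinesin, had overlapping groups, with 8.95, 9.02, 8.49 and 8.77 in activated cells, against 9.25, 9.07, 8.85 and 8.84 in resting cells, and its change of -0.19 ± 0.11 did not pass (adjusted p = 0.188).

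All 5 genes of chromosomes and passengers, all 4 of anaphase and all 4 of cytokinesis fell at 2 h. Aurkb, the kinase of the passenger complex, read 7.42, 7.25, 7.12 and 7.08 in activated cells, against 8.50, 8.34, 8.32 and 8.06 in resting cells, a change of -1.09 ± 0.09. Top2a, the topoisomerase that untangles chromosomes, read 7.91, 8.08, 7.98 and 7.85 in activated cells, against 9.01, 8.96, 8.62 and 8.68 in resting cells, a change of -0.86 ± 0.09, against -0.22 on its dimmer probe. Neither gene's groups overlapped. The anaphase genes fell least as a group (median -0.68), with Cdc20, the activator of the anaphase-promoting complex, at -0.41 ± 0.07. Depdc1b, listed here with cytokinesis, had the largest change of the set, with 8.77, 8.85, 8.68 and 8.66 in activated cells, against 10.82, 11.07, 10.78 and 10.75 in resting cells. That is 4.33-fold lower (-2.11 ± 0.07, adjusted p = 2.52e-12), on 1 kept probe.

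**Figure D1:**
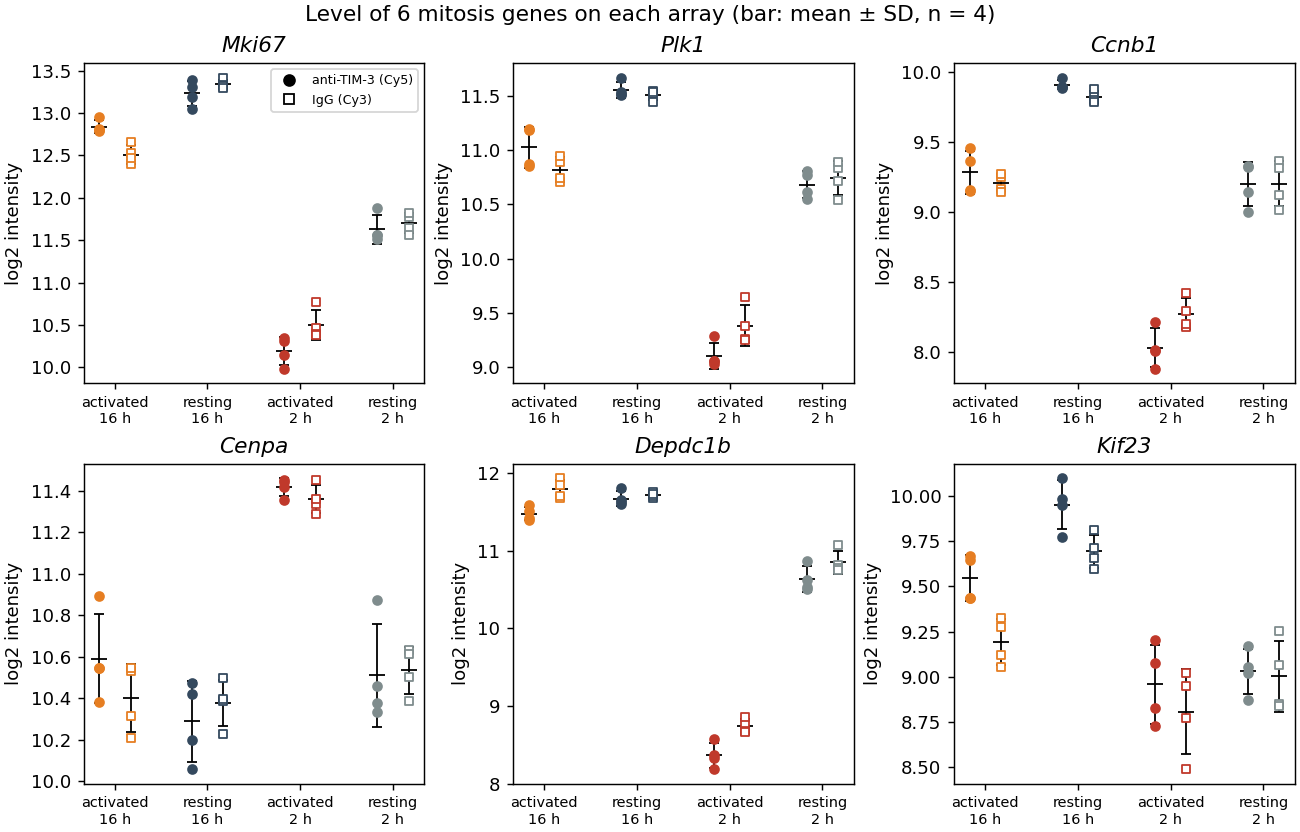
Level of 6 members on each array, as log2 intensity (vertical axis), by group (horizontal axis). Filled circles are anti-TIM-3 samples (Cy5), open squares IgG samples (Cy3), and bars are mean ± SD of 4 arrays. Mki67, Plk1, Ccnb1 and Depdc1b are lowest in activated cells at 2 h, Cenpa is highest there, and Kif23 overlaps with resting cells at 2 h.

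At 16 h antigen still left most of the set lower, by less. In IgG-treated cells 40 of the 44 genes were lower in activated cells and 0 higher, where 7.02% of all genes were lower and 5.3% higher. The member median was -0.55, a 1.46-fold lower level, and no member passed 2-fold. The median was -0.60 with median centring of each array, but only 1 gene then passed, and it was -0.62 with 39 genes lower on the processed signals. Within the 2 slides that held both groups it was -0.63 and -0.50.

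Mki67 changed most at 16 h, with 12.65, 12.52, 12.40 and 12.46 in activated cells, against 13.42, 13.33, 13.32 and 13.29 in resting cells, which is 1.78-fold lower (-0.83 ± 0.08, adjusted p = 9.64e-06). Bub1b (-0.76 ± 0.09), Cenpf (-0.73 ± 0.08) and Cenpe (-0.71 ± 0.09, and -0.23 on the least changed of its probes) followed. Plk1 read 10.89, 10.95, 10.71 and 10.74 in activated cells, against 11.55, 11.52, 11.54 and 11.45 in resting cells. No activated array reached a resting one for either gene. Ube2c, the ubiquitin-conjugating enzyme of the anaphase-promoting complex, fell by 0.69 ± 0.10 and Plk1 by 0.69 ± 0.09. Kif23, which had not passed at 2 h, was lower here, with 9.28, 9.33, 9.12 and 9.05 in activated cells, against 9.66, 9.81, 9.72 and 9.60 in resting cells (-0.50 ± 0.11, adjusted p = 0.00704). The 4 genes that did not pass were Cenpa (0.02 ± 0.08), Depdc1b (0.08 ± 0.07), Stmn1 (-0.26 ± 0.10) and Birc5, the survivin gene, with its single resting array (-0.50 ± 0.26).

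**Figure D2:**
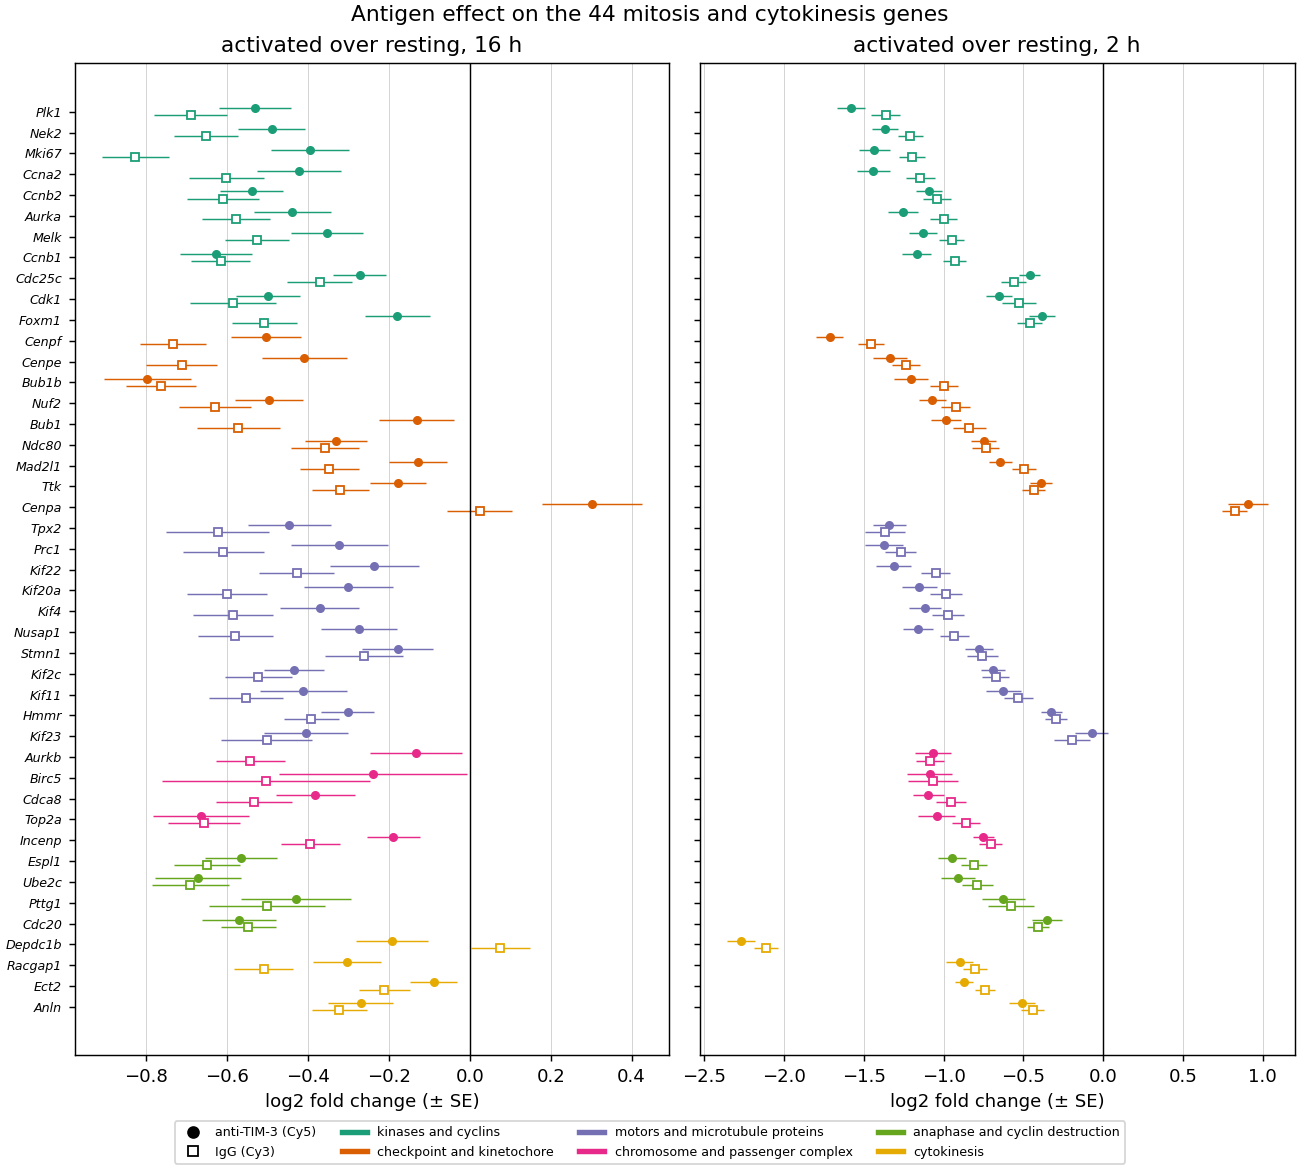
Change of each of the 44 genes with antigen (horizontal axis, log2 of activated over resting cells, ± SE from the fit of 4 arrays per group) at 16 h (left) and 2 h (right), ordered by role and coloured by it. Filled circles are anti-TIM-3-treated cells and open squares IgG-treated cells. Cenpa alone lies right of 0 at 2 h, and at 16 h Cenpa does so with either antibody and Depdc1b with IgG; the panels differ in range.

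The antigen effect differed between the times for 24 members. It was less negative at 16 h than at 2 h for 23 and lower for 1, Cenpa, where 20.6% and 12.7% of all genes differed in these directions. With median centring 1 member passed, Depdc1b, and with the processed signals 29 were less negative. Depdc1b moved most, by 2.19 ± 0.10 (adjusted p = 3.59e-10): it read 11.94, 11.85, 11.69 and 11.71 in activated cells at 16 h, against 11.68, 11.71, 11.76 and 11.74 in resting cells at 16 h, which overlap. Cenpa moved by -0.80 ± 0.11, with 10.21, 10.53, 10.54 and 10.31 in activated cells at 16 h and 10.50, 10.39, 10.40 and 10.23 in resting cells at 16 h, which also overlap. Tpx2 (0.75 ± 0.18), Cenpf (0.72 ± 0.12), Plk1 (0.67 ± 0.13) and Prc1 (0.66 ± 0.14) were next. By role, the effect was less negative for 8 of 11 kinases and cyclins, 3 of 9 checkpoint and kinetochore genes, 6 of 11 motors, 3 of 5 chromosome and passenger genes and 3 of 4 cytokinesis genes. None of the 4 anaphase genes passed, and their changes ran between -0.14 and 0.16.

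Between 2 h and 16 h the set rose in the culture whether or not antigen was given. In resting IgG-treated cells 43 of 44 genes were higher at 16 h and 0 lower, where 24.1% of all genes were higher and 22.8% lower. The member median was 0.99, a 1.99-fold higher level, and 22 genes were at least 2-fold higher. Nuf2, of the Ndc80 complex that holds microtubules at the kinetochore, was 3.23-fold higher and Mki67 3.11-fold. Cenpa did not pass (-0.16 ± 0.08, adjusted p = 0.125). Within slides that held both times the median was 1.14, 0.80 and 0.97. In activated IgG-treated cells 42 genes were higher at 16 h and 1 lower, where 33.9% of all genes were higher and 26.2% lower, with a median of 1.32 (1.37 within the 1 slide that held both times). Depdc1b was 8.31-fold higher and Mki67 4.02-fold, Ttk at least 1.68-fold, Cenpa was lower by 0.96 ± 0.08, and Cdc20 did not pass (0.16 ± 0.07, adjusted p = 0.0533). The labels give no sample from before treatment, so what part of this was time in culture was not tested.

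Relative to resting cells at 2 h, the member median of single arrays, each gene set to its own mean there, was 0.33 to 0.49 in activated cells at 16 h and 0.90 to 1.01 in resting cells at 16 h, and -1.01 to -0.72 in activated cells at 2 h. These Cy3 ranges do not touch. By this median, activated cells at 16 h stood above resting cells at 2 h and below resting cells of their own time. Single members could differ from it. The Plk1 arrays of activated cells at 16 h and resting cells at 2 h overlapped, and no test compared those groups.

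Other mitosis genes, 79 on the array and tested, none of them a member, mostly moved in the same direction. This list too was chosen with earlier results of these data known, so it is not independent support. In IgG-treated cells at 16 h, 62 were lower and 2 higher with antigen (median -0.44), where 7.02% of all genes were lower and 5.3% higher. At 2 h, 70 fell and 1 rose (median -0.59), where 27.6% of all genes fell and 15.3% rose. Pimreg, a mitotic regulator, fell by 1.36 at 2 h, and Cdc25b, the phosphatase that activates Cdk1, by 1.24. Wee1, the kinase that holds Cdk1 inactive, changed by 0.14 (adjusted p = 0.234) and Cdc27, a subunit of the anaphase-promoting complex, by 0.14 (adjusted p = 0.054). The 2 that were higher at 16 h were Psrc1 (0.59) and Mad1l1 (0.32).

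Whether the promoter letters sort the members by response could not be read from these values, since nearly all members fell. Of the 35 members with a window, 33 were lower at 2 h in IgG-treated cells. In IgG-treated cells at 2 h the 25 members with TTTGAA had a median antigen effect of -0.80, with 23 lower, and the 10 members with a window but without it had -0.93, with 10 lower. Over all genes tested, 32.6% of the 1683 with TTTGAA fell, and 30.8% of the 9517 without it. At 16 h these shares were 9.86% and 7.3%, and among the 813 genes with both TTTGAA and CCAAT the share was 14.1%, against 7.69% of all genes with a window. The shares over all genes include the members, which were 21 of the 115 lower genes with both TTTGAA and CCAAT at 16 h.

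With anti-TIM-3 in place of IgG the same antigen effect was read in the Cy5 channel. At 2 h 42 members were lower and 1 higher in activated cells, where 28.2% of all genes were lower and 17.1% higher, with a median of -1.05, and 23 genes at least 2-fold lower. Plk1 in this channel read 9.28, 9.06, 9.05 and 9.02 in activated cells, against 10.81, 10.77, 10.55 and 10.61 in resting cells. Cenpa read 11.36, 11.44, 11.45 and 11.42 in activated cells, against 10.38, 10.87, 10.33 and 10.46 in resting cells, again higher with antigen on every array. At 16 h 29 members were lower and 0 higher, where 9.79% were lower and 9.47% higher, with a median of -0.38. With median centring 2 passed at 16 h and the median was -0.34. The genes with the largest falls at 16 h were Bub1b (-0.80 ± 0.11), Ube2c (-0.67 ± 0.11), Top2a (-0.67 ± 0.12, and -0.26 on its dimmer probe), Ccnb1 (-0.63 ± 0.09) and Cdc20 (-0.57 ± 0.09). All 4 anaphase genes passed there, but 2 of 5 chromosome and passenger genes.

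In activated cells the anti-TIM-3 ratio of the set was below 0 at 2 h and above 0 at 16 h after loess, but with median centring the 2 h median was 0.00. At 2 h 26 members were lower with anti-TIM-3 than with IgG and 1 higher, where 16.3% of all genes were lower and 17.1% higher, and the member median was -0.17. Median centring left the median gene of the array at 0.22, and 12 members then passed as higher and 7 as lower, so that relative to the median gene the members stood at -0.22. The processed signals gave 29 lower and 0 higher. Aurka, the centrosomal Aurora kinase, had ratios of -0.52, -0.45, -0.32 and -0.51 in activated cells at 2 h and -0.20, -0.05, -0.34 and -0.19 in resting cells at 2 h, which overlap at 1 array. Kif22, a chromosome-bound kinesin, had ratios of -0.53, -0.38, -0.35 and -0.51 in activated cells at 2 h and -0.11, -0.15, -0.24 and -0.23 in resting cells, which did not overlap. The mean ratios in activated cells were -0.45 ± 0.06 for Aurka (adjusted p = 2.14e-05) and -0.44 ± 0.05 for Kif22 (adjusted p = 3.68e-06), levels 1.37-fold and 1.36-fold lower with anti-TIM-3. Kif23 was the 1 gene higher with anti-TIM-3 (0.15 ± 0.05, adjusted p = 0.0258). In resting cells at 2 h 7 members were lower and 0 higher, where 6.92% of all genes were lower and 7.06% higher, and leaving out replicate 1 of this group brought the 7 genes to 2. Without the 3 arrays of small spread, and with the processed signals, 4 members were lower. Median centring turned that direction, with 28 members higher and 0 lower at an array median of 0.21.

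At 16 h 29 members were higher with anti-TIM-3 in activated cells and 1 lower, where 16.9% of all genes were higher and 13.2% lower. The member median was 0.19, or 0.71 with median centring, which put the median gene at 0.39. Stmn1, the microtubule-destabilising protein stathmin, had ratios of 0.49, 0.65, 0.42 and 0.54 in activated cells at 16 h and 0.66, 0.30, 0.50 and 0.31 in resting cells at 16 h. It was above 0 on all 8 arrays, and the groups overlapped. Its level was 1.44-fold higher with anti-TIM-3 in activated cells (0.52 ± 0.06, adjusted p = 7.43e-06), ahead of Tpx2 (0.46 ± 0.06) and Kif11 (0.45 ± 0.06), the kinesin that pushes spindle poles apart. The dimmer probes gave 0.11 for Stmn1 and 0.02 for Kif11. Depdc1b was the 1 gene that was lower, with ratios of -0.51, -0.27, -0.29 and -0.19 in activated cells at 16 h and 0.13, -0.07, -0.11 and -0.13 in resting cells. Its mean of -0.31 ± 0.05 became 0.28 with median centring, where the median gene was at 0.39. By role, 8 of 11 kinases and cyclins, 6 of 9 checkpoint and kinetochore genes, 7 of 11 motors, 4 of 5 chromosome and passenger genes, 1 of 4 anaphase genes and 3 of 4 cytokinesis genes were higher. In resting cells at 16 h 8 members were higher and 2 lower, where 11.7% of all genes were higher and 9.95% lower, with a median of 0.03. Stmn1 (0.44 ± 0.06, and 0.18 on its dimmer probe), Kif11 (0.31 ± 0.06, and -0.04 on its dimmer probe) and Tpx2 (0.28 ± 0.06) had the highest ratios there. Without resting cells at 16 h replicate 1 the count was 4, without replicate 3 it was 5, and with median centring it was 43, all higher.

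**Figure D3:**
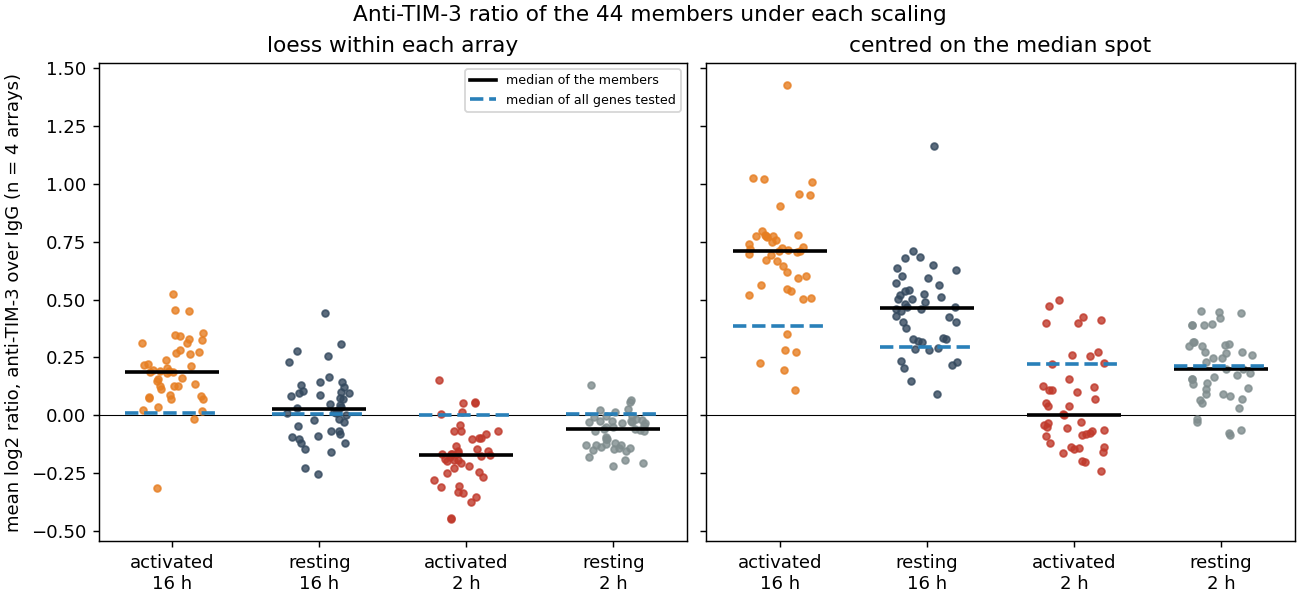
Mean log2 ratio of anti-TIM-3 over IgG (vertical axis, 4 arrays) of each of the 44 members in the 4 groups, after loess within each array (left) and with arrays centred on the median spot (right). The solid line is the median of the members and the dashed line that of all genes tested. In activated cells the median of the members lies above that of all genes at 16 h and below it at 2 h in both panels, with single members on the other side. The member median of activated cells is above 0 at 16 h in both panels, while at 2 h its position against 0 depends on the scaling.

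A difference between groups in the ratio leaves out a dye bias that is the same on all arrays. In activated cells the anti-TIM-3 effect was higher at 16 h than at 2 h for 35 members and lower for 0, where 9.14% of all genes were higher and 8.04% lower, and the median difference was 0.38. It was 0.49 with the processed signals (34 members higher) and 0.64 with median centring (42 higher, with the median gene at 0.10), and 0.33 within the 1 slide that held both groups. Stmn1 differed most (0.67 ± 0.09, and 0.28 on its dimmer probe), then Mki67 (0.64 ± 0.10), Melk (0.58 ± 0.08), a kinase of proliferating cells, and Kif4 (0.58 ± 0.08), a chromokinesin. Mki67 had ratios of 0.30, 0.28, 0.39 and 0.35 in activated cells at 16 h and -0.46, -0.32, -0.41 and -0.04 in activated cells at 2 h. Plk1 had 0.30, 0.24, 0.15 and 0.13 at 16 h and -0.37, -0.32, -0.20 and -0.22 at 2 h, also in activated cells. For both genes all arrays at 16 h were above 0, all arrays at 2 h below it. Top2a had 0.30, 0.21, 0.16 and 0.22 at 16 h and -0.12, -0.46, -0.47 and -0.29 at 2 h, and Cdk1 had 0.13, 0.15, 0.21 and 0.27 at 16 h and -0.06, -0.31, -0.25 and -0.16 at 2 h. The differences were 0.48 ± 0.05 for Plk1 (adjusted p = 7.86e-06), 0.56 ± 0.13 for Top2a (0.18 on its dimmer probe), 0.38 ± 0.07 for Cdk1 (0.04 on its dimmer probe), 0.44 ± 0.10 for Aurkb and 0.32 ± 0.05 for Ccnb1. The 9 members that did not pass were Cdc25c, Cenpa, Cenpe, Kif23, Prc1, Hmmr, Cdc20, Pttg1 and Depdc1b, with differences of -0.03 to 0.20.

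In resting cells the same difference between times passed for 1 member, Stmn1 (0.57 ± 0.09, adjusted p = 0.00598, and 0.34 on its dimmer probe), where 0.0878% of all genes were higher and 0.199% lower, and the median was 0.09. This count moved with single arrays, to 10 without resting cells at 2 h replicate 3, 2 without replicate 4 of that group, 3 without resting cells at 16 h replicate 2 and 5 without its replicate 4. It was 11 without the 3 arrays of small ratio spread, 6 with median centring and 0 with the processed signals. Whether the change over time differed between activated and resting cells was not tested as such.

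Set against resting cells of the same time, the anti-TIM-3 effect in activated cells differed for fewer members. This difference equals that between the antigen effects read with anti-TIM-3 and with IgG. At 16 h it was higher for 9 members and lower for 1, where 4.68% of all genes were higher and 3.87% lower, and the median was 0.15 (0.15 and 0.11 within 2 slides). Bub1, the checkpoint kinase, had ratios of 0.24, 0.42, 0.27 and 0.45 in activated cells at 16 h and -0.18, 0.02, -0.27 and 0.05 in resting cells at 16 h. Aurkb had 0.28, 0.52, 0.20 and 0.36 in activated cells and 0.05, -0.01, -0.30 and -0.02 in resting cells. For both genes the groups did not overlap, and the differences were 0.44 ± 0.08 (adjusted p = 0.0019) for Bub1 and 0.41 ± 0.10 (adjusted p = 0.0134) for Aurkb. Mki67 (0.43 ± 0.10, and 0.19 on its dimmer probe), Foxm1 (0.33 ± 0.06), Nusap1 (0.31 ± 0.05), which bundles spindle microtubules, and Kif20a (0.30 ± 0.08) also passed, and the 1 lower gene was Depdc1b (-0.27 ± 0.07). The 10 calls became 6 without activated cells at 16 h replicate 1, 5 without resting cells at 16 h replicate 1 and 6 without its replicate 3. The slide as a block left 6, the processed signals 6 and median centring 15, all 15 higher.

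At 2 h the effect was lower in activated than in resting cells for 5 members and higher for 0, where 1.99% of all genes were lower and 3.58% higher, with a median of -0.12 (-0.05 and -0.08 within 2 slides). Ccna2, cyclin A2, had ratios of -0.23, -0.24, -0.15 and -0.28 in activated cells at 2 h and 0.09, 0.06, 0.09 and 0.03 in resting cells at 2 h. Ccnb1 had -0.20, -0.29, -0.16 and -0.32 in activated cells and -0.03, 0.01, -0.01 and 0.02 in resting cells. Neither pair of groups overlapped. The differences were -0.29 ± 0.05 for Ccna2 (adjusted p = 0.00077), -0.26 ± 0.07 for Kif22, -0.24 ± 0.05 for Ccnb1 (adjusted p = 0.0121), -0.23 ± 0.05 for Nusap1 and -0.22 ± 0.05 for Plk1. The 5 calls became 3, 2 and 3 without activated cells at 2 h replicates 1, 2 and 4, 3 with the slide as a block, and 9 with the processed signals.

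**Figure D4:**
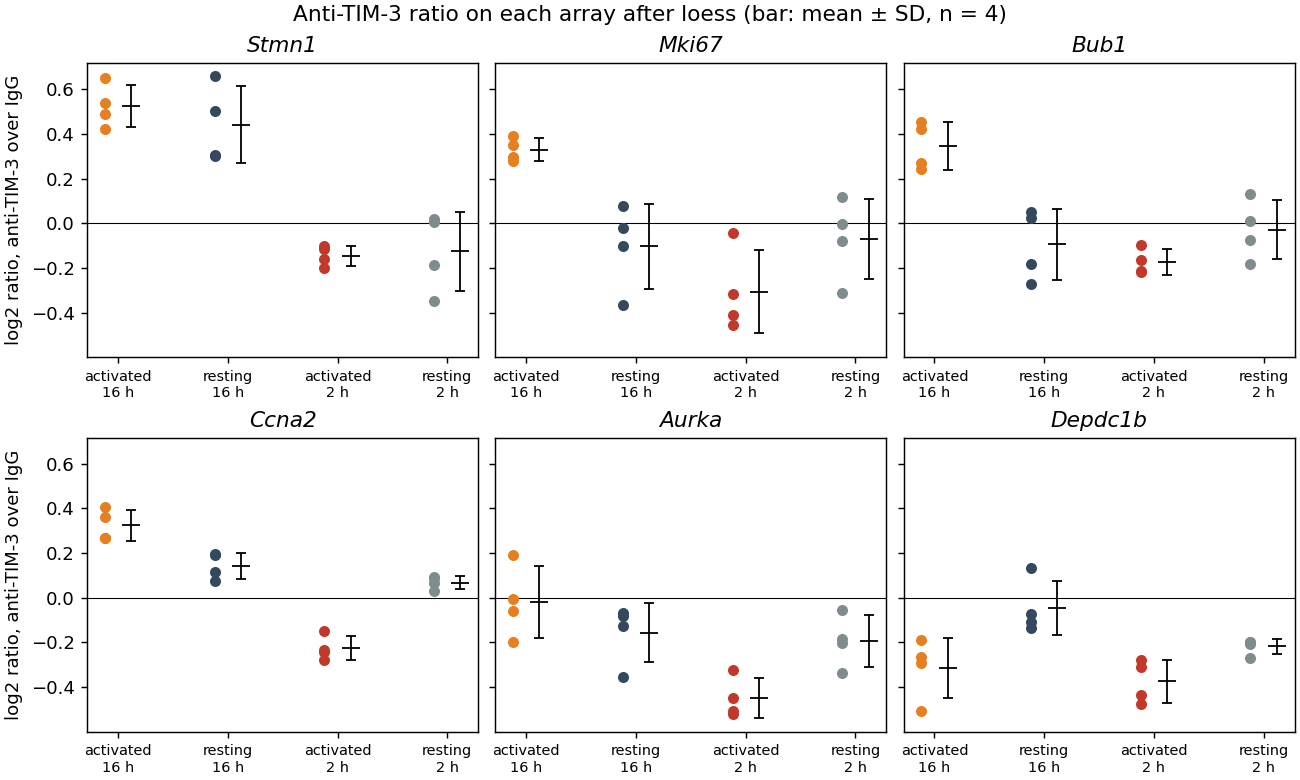
Log2 ratio of anti-TIM-3 over IgG after loess on each array (vertical axis) for 6 members in the 4 groups (horizontal axis), with mean ± SD of 4 arrays as bars. Stmn1 is above 0 at 16 h in activated and resting cells alike, Mki67, Bub1 and Ccna2 are above 0 in activated cells at 16 h and below it at 2 h, and Depdc1b is below 0 in activated cells at both times.

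Of the 79 other mitosis genes, 58 had a higher anti-TIM-3 effect at 16 h than at 2 h in activated cells and 0 a lower one, with a median of 0.34. Over all genes 9.14% were higher and 8.04% lower. At 16 h 56 were higher and 0 lower with anti-TIM-3 in activated cells (median 0.24), where 16.9% of all genes were higher and 13.2% lower. At 2 h 1 was higher and 31 lower (median -0.11), where 17.1% of all genes were higher and 16.3% lower. Mad1l1, which carries Mad2 to the kinetochore, had the largest difference between times, 0.87, followed by Sgo1, the protector of centromeric cohesion (0.74), and Pimreg (0.73).

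Some markers of cell types moved with antigen and with anti-TIM-3. With anti-TIM-3 in activated cells at 16 h, of the 9 macrophage and dendritic cell markers tested, 6 were lower and 1 higher, with a median of -0.36. Over all genes, 13.2% were lower and 16.9% higher. The sum of the Cy3 and Cy5 intensities of these markers differed more between arrays of a group than between groups. In activated cells at 16 h the sum was 7930 to 14495 with anti-TIM-3 and 9047 to 16446 with IgG, and in resting cells at 16 h 7579 to 16186 with anti-TIM-3 and 7649 to 19387 with IgG. In activated cells at 2 h it was 7307 to 17918 with anti-TIM-3 and 7084 to 16243 with IgG, and in resting cells at 2 h 6571 to 15876 with anti-TIM-3 and 6485 to 16764 with IgG. Between activated and resting IgG-treated cells, 0 of the 9 changed at 2 h, where 27.6% of all genes were lower and 15.3% higher. At 16 h 2 of them were higher in activated cells and 0 lower, where 5.3% of all genes were higher and 7.02% lower. Of the 10 mast cell markers, 3 were lower with antigen at 2 h in IgG-treated cells, Kit (-0.89), Ms4a2 (-0.61) and Gata2 (-0.25), and 1 was higher, Hdc (1.51), the histamine-forming enzyme. These counts are near the shares over all genes, 27.6% lower and 15.3% higher. Siglecf, listed with eosinophils, was 6.42-fold higher with antigen at 2 h in IgG-treated cells (adjusted p = 8.03e-12) and 1.68-fold higher with anti-TIM-3 than with IgG in activated cells at 2 h. The other eosinophil marker tested, Prg2, did not pass in either comparison. Of the mast cell markers 7 of 10 were higher with anti-TIM-3 in activated cells at 16 h and 1 lower, where 16.9% of all genes were higher and 13.2% lower. Resting cells at 16 h had 6 higher and 1 lower, where 11.7% of all genes were higher and 9.95% lower. At 2 h 4 were higher in resting and 3 in activated cells, where 7.06% and 17.1% of all genes were higher. The difference activated minus resting at 16 h was higher for 1 and lower for 2 of these markers (median -0.22), where 4.68% and 3.87% of all genes were. Siglech of plasmacytoid cells, Elane, Camp, Ltf and Ngp of neutrophils, Epx of eosinophils, and Cd3g and Ms4a1 of lymphocytes were not kept as above background. The same held for 1 basophil, 1 erythroid and 3 fibroblast markers. The part of other cell types in the members' changes was not tested.

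Probes of the same gene mostly had the same sign but not always the same size. Of the 15 members with more than 1 kept probe, 14 passed for the antigen effect at 2 h in IgG-treated cells, and the sign differed between probes for 0 of them. At 16 h the sign differed for 1 of 14, Cdk1. The dimmer Cdk1 probe gave antigen effects of 0.02 at 16 h and -0.03 at 2 h, where the brighter one gave -0.59 and -0.53, and time effects of -0.08 in resting and -0.02 in activated cells, where the brighter one gave 1.20 and 1.15, so the changes of Cdk1 hold for 1 of its 2 probes. The dimmer Kif11 probe likewise gave antigen effects of -0.04 at 16 h and -0.10 at 2 h, where the brighter one gave -0.55 and -0.53. For the anti-TIM-3 ratio in activated cells the sign differed for 2 of 12 at 16 h and 2 of 11 at 2 h, and for the difference between these times for 0 of 12.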

How the data were processed

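RNA of anti-TIM-3-treated (Cy5) and IgG-treated (Cy3) cells was compared on 16 two-colour arrays of 45018 spots. Per the file headers, the deposited scanner files hold mean signal and median background intensities, processed signals (intensities after the scanner software's background subtraction and dye normalization) and a log10 ratio of red over green, written by Agilent Feature Extraction, version 9 per the submitters' processing notes. The value table of the series was only compared with this log10 ratio, which it matched on all 16 arrays (largest difference 0), and did not enter the results.

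With limma 3.58.1 (R 4.3.3), mean signals were corrected with normexp (offset 50) and loess within each array, with controls and outlier spots at weight 0. Single-dye levels were then put on a common scale with Aquantile. Probes had to be flagged well above background, in Cy3 or in Cy5, on 3 or 4 arrays of some group. A gene took the value of its brightest kept probe, and its role came from its list. All 16 arrays entered 1 fit with a mean per group (lmFit, eBayes). P-values were two-sided, adjusted by Benjamini-Hochberg over all genes tested and called under 0.05. Ratios are log2 of anti-TIM-3 over IgG.

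Values per array were given for some of the 6 members with the largest change in a comparison. For Mki67, Plk1, Cdk1, Ccnb1, Aurkb and Top2a they were given in part of the comparisons. Further members were named from their values. A value of a probe below background on every array of a group is a bound: the mean of the brighter group over each dim array's lowest signal that passed that flag. The members and the lists (other mitosis genes, cell markers, promoter letters) were chosen with earlier results of these data known. The number of arrays limits the precision. Same-numbered arrays deviated together in Cy3 (all 24 pairs correlated above 0.1, lowest 0.12, against 14 of 72 other pairs), so the numbers are taken to pair the samples for antigen and time effects. The reported fit has no term for this pairing, so its antigen and time effects are unpaired, and the pairing entered only as the replicate block below. The fit was tested on simulated data. Alternatives were the processed signals, median centring, a stricter filter, the mean of probes, slide and replicate blocks, each array left out, and, chosen after seeing the data, leaving out the 3 arrays of smallest ratio spread.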

Additional observations from a re-analysis of the deposited data

Results flagged for a closer look

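Of 112 groups of 4 values printed per array, 3 had 1 array far from the others, and chance marks about 1 in 20 such groups. Plk1 with anti-TIM-3 read 9.28 on replicate 1 of activated cells at 2 h, against 9.02 to 9.06 on the others. The Depdc1b ratio was -0.27 on replicate 3 of resting cells at 2 h, with the others at -0.21 to -0.20. The Kif22 ratio was -0.34 on replicate 3 of resting cells at 16 h, with the others at -0.08 to -0.03.

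The anti-TIM-3 effect differed between 16 h and 2 h in activated cells for 35 members by the contrast of the 2 effects, among them Stmn1 (0.67), Mki67 (0.64), Melk (0.58), Kif4 (0.58), Top2a (0.56), Tpx2 (0.56), Plk1 (0.48), Aurkb (0.44), Cdk1 (0.38) and Ccnb1 (0.32). In resting cells it differed for 1, Stmn1 (0.57). Between activated and resting cells it differed at 16 h for 10 members, among them Bub1 (0.44), Mki67 (0.43), Aurkb (0.41), Foxm1 (0.33), Nusap1 (0.31) and Kif20a (0.30). At 2 h it differed for 5 members, Ccna2 (-0.29), Kif22 (-0.26), Ccnb1 (-0.24), Nusap1 (-0.23) and Plk1 (-0.22).

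The antigen effect in IgG-treated cells differed between 16 h and 2 h for 24 members, among them Depdc1b (2.19), Cenpa (-0.80), Tpx2 (0.75), Cenpf (0.72), Plk1 (0.67), Prc1 (0.66), Aurkb (0.54), Mki67 (0.37) and Ccnb1 (0.31).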

How the results depend on the processing

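Many counts of called members depended on how arrays were scaled. With median centring, which put the median gene at 0.39 and 0.22 in activated cells at 16 h and 2 h and at 0.30 and 0.21 in resting cells, the anti-TIM-3 ratio called 28 members in resting cells at 2 h (28 higher), 19 in activated cells at 2 h (12 higher, 7 lower) and 43 in resting cells at 16 h. The share of higher among all calls was then 88.9% (56% after loess) in activated and 92.3% (54%) in resting cells at 16 h, 92.9% (51.2%) in activated and 96.8% (50.5%) in resting cells at 2 h. Members whose called sign turned were, at 2 h in resting cells, Ccnb2 (0.30), Aurka (0.17), Kif22 (0.23) and Depdc1b (0.12), and in activated cells Cdk1 (0.0713), Ccna2 (0.0544), Ccnb2 (0.22), Plk1 (0.0033), Mki67 (0.0399), Mad2l1 (0.11), Kif20a (0.12), Cdca8 (0.22), Ube2c (0.10) and Ect2 (0.16). At 16 h they were Prc1 (0.23) and Nusap1 (0.33) in resting cells and Depdc1b (0.28) in activated cells. The antigen effect at 16 h then called 1 member with IgG and 2 with anti-TIM-3, its difference between times 1, and the anti-TIM-3 difference between times in resting cells 6. Over all genes the antigen effect with IgG at 16 h had 45 higher and 37 lower calls, against 906 and 1199 in the fit reported. The cause was not tested.

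With the processed signals the counts were 4 (resting, 2 h), 6 (resting, 16 h), 9 and 6 for activated minus resting at 2 h and 16 h, and 0 for 16 h minus 2 h in resting cells. With the slide as a block, activated minus resting called 3 at 2 h and 6 at 16 h. With the 3 arrays of smallest spread left out, resting cells at 2 h had 4 and the difference between times in resting cells 11. Same-numbered arrays correlated above 0.1 in 12 of 24 pairs of ratios (median 0.12) and in 21 of 24 pairs of Cy5 levels (median 0.40, against -0.08 for other pairs), so not every pair did, as every pair of Cy3 levels had. The replicate block gave 3 for the anti-TIM-3 difference between times in resting cells and 36 in activated cells, and changed no other count by over 1.5 times (antigen with IgG 43 at 2 h and 41 at 16 h, with anti-TIM-3 43 at 2 h and 35 at 16 h).

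Leaving out 1 array at a time gave these ranges of called members: anti-TIM-3 ratio 2 to 7 (resting, 2 h), 21 to 28 (activated, 2 h), 4 to 12 (resting, 16 h) and 23 to 32 (activated, 16 h), activated minus resting 2 to 5 at 2 h and 5 to 12 at 16 h, 16 h minus 2 h 1 to 10 in resting and 32 to 37 in activated cells, antigen with IgG 43 to 43 at 2 h, 38 to 41 at 16 h and 19 to 25 for their difference, antigen with anti-TIM-3 43 to 43 at 2 h and 25 to 33 at 16 h, and time 42 to 43 in resting and 43 to 44 in activated cells. Dim probes limit Ttk, Hmmr, Anln and Kif2c in activated cells at 2 h.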
